A study of Macaca mulatta with 10 samples.

Results

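The cadherins and protocadherins are calcium-dependent adhesion molecules of the cell surface. The family was taken here as every gene whose symbol is CDH followed by a digit or starts with PCDH, and 45 of the 11963 genes measured met this rule. Symbols alone set which genes were members, but the family itself was chosen with earlier results of these data known. They comprised 4 classical type I cadherins, 12 classical type II cadherins, 2 atypical cadherins, 6 delta protocadherins, 20 clustered protocadherins and PCDH12.

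Transcripts were measured in micro-punches of 5 dorsal thalamic nuclei of untreated adult rhesus monkeys (Macaca mulatta). The labels name the nuclei Ventral Thalamus, Anterior Thalamus, Medial Thalamus, Centre Median and Pulvinar, and each gave 2 arrays, numbered replicate 1 and replicate 2, which makes 10 arrays in all. Biotin-labelled total RNA was hybridised to the Affymetrix U133A array, which was designed for human transcripts. The labels do not say whether the replicates came from separate animals, so p-values measure only the spread between these arrays, which may be technical.

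Cadherins of neighbouring cells bind each other through repeated extracellular domains, and classical cadherins are anchored to actin through catenins. In the developing brain the type II cadherins are known for patterns that mark particular nuclei and cortical areas, and cells that carry the same cadherin tend to adhere. Delta protocadherins act in axon growth and synapse formation, whereas the clustered protocadherins, encoded in the alpha, beta and gamma arrays, are chosen in different combinations by single neurons and serve self-recognition.

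Values are log2(intensity + 1), and all differences are on that scale. Each gene was read from 1 probe set, a group of short probes for the same transcript, so a value is set only against the same gene in other arrays. A human probe may bind its rhesus counterpart weakly, and a low value was not read as absence. The mean over the 10 arrays was under a log2 value of 6 for 15 of the 45 members, against 23.6% of all genes. In such tissue punches, fewer cells of a type and less RNA per cell cannot be told apart.

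The arrays differed more by replicate number than by nucleus. Array correlations within a nucleus were 0.940 to 0.961, and those within a replicate number were 0.979 to 0.992. Median intensities lay between 94.2 and 100.6. The 3′ minus 5′ signal of the actin control, a sign of RNA quality, was -0.09 to 0.46 on 4 of the replicate 1 arrays, 1.22 on the Ventral Thalamus replicate 1 array and 1.151 to 1.64 on the replicate 2 arrays. Comparisons are therefore given from a fit without the replicate number and from a fit with it as a block, which compares nuclei within each replicate number.

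The widest distances between nucleus means were those of the type II cadherins CDH12, CDH9 and CDH8. The high Ventral mean of CDH12 rested on a single array, Ventral replicate 2. CDH8 stood 0.65 lower in the Ventral Thalamus than in the other nuclei, and was called in the fit with the block alone. A second CDH8 probe set gave 0.14 for that difference, and the call was lost under several of the alternatives given below. CDH9 stood 0.86 higher in the Centre Median than in the other nuclei, in both arrays, without passing the threshold in either fit. The highest and the lowest nucleus mean were at least 1.5-fold apart for 7 members, CDH12, CDH7, CDH8, CDH9, PCDH7, PCDH8 and PCDH9, against 5.27% of all genes, and at least 2-fold apart for CDH12 alone, against 0.844%. The median distance between the highest and the lowest mean was 0.25 for the members and 0.23 for all genes. By subfamily it was 0.40 for the 12 type II cadherins, 0.59 for the 6 delta protocadherins and 0.22 for the 20 clustered protocadherins.

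limma's F test over the 5 nuclei, adjusted by Benjamini-Hochberg over all genes, called 0 members in either fit. The background was 0% of all genes without the block and 0.393% with it. At an unadjusted p under 0.05, CDH9 was the single member without the block (background 0.719%), and 7 members passed with it (9.68%), namely CDH2, CDH5, CDH7, CDH8, CDH9, PCDH7 and PCDH9. Each nucleus was then set against the mean of the other 4 nuclei. The 5 comparisons share arrays and depend on each other, because a nucleus that is high also raises the mean the other nuclei are set against.

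Without the block, limma called 0 members in each of these 5 comparisons, against 0.0251% of genes in the Centre Median and 0% in the other nuclei. At an unadjusted p under 0.05 the members were CDH9 in the Centre Median (background 0.995%) and CDH5 in the Medial Thalamus (1.22%), and there was none in the Anterior Thalamus (0.301%), Pulvinar (0.284%) or Ventral Thalamus (1.57%). With the block, 1 member was called, CDH8 in the Ventral Thalamus, where 0.527% of genes were called and 0.117% were called lower. The background of calls was 0.176% in the Centre Median, 0.159% in the Medial Thalamus and 0% in the Anterior Thalamus and Pulvinar, with 0 members in each. At an unadjusted p under 0.05 with the block there were 6 members in the Anterior Thalamus (background 5.75%), 4 in the Centre Median (5.92%), 4 in the Medial Thalamus (10.3%), 3 in the Pulvinar (3.73%) and 7 in the Ventral Thalamus (11.9%).

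The standard error of a member's difference from the rest had a median of 0.19 without the block and 0.10 with it. With the block it ran from 0.058 for CDH19 to 0.32 for CDH12, so small differences were not detectable for the most variable members. Among the 10 direct pairs of nuclei, limma called 0 of the members' comparisons in either fit, against 0.00418% of all gene and pair combinations without the block and 0.176% with it. At an unadjusted p under 0.05 there were 8 of the 450 member and pair combinations without the block (background 0.857%) and 51 of the 450 with it (7.61%).

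**Figure D1:**
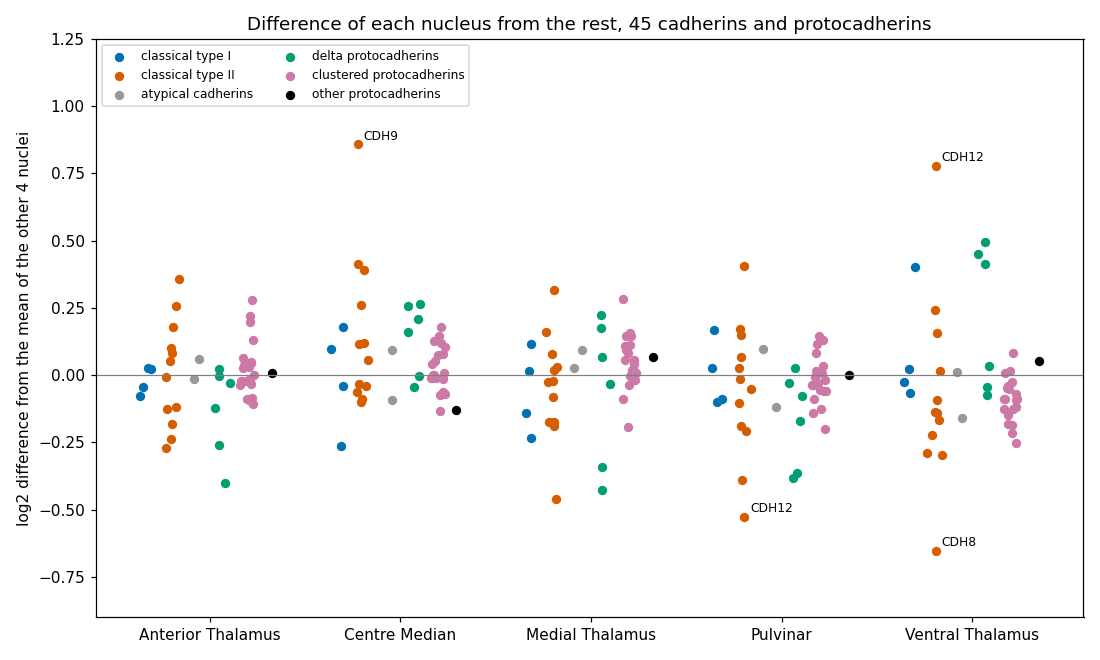
Each point is 1 of the 45 members, coloured by subfamily, and the vertical axis gives the log2 difference of a nucleus mean from the mean of the other 4 nuclei. Most points lie close to 0, while CDH9 stands at 0.86 in the Centre Median, and CDH12 at 0.78 and CDH8 at -0.65 mark the edges in the Ventral Thalamus. The CDH12 difference was carried by Ventral replicate 2.

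Among the 4 classical type I cadherins, no member passed the adjusted threshold between nuclei. CDH2, N-cadherin, the main classical cadherin of neurons and their synapses, measured 9.05 and 9.97 in the Anterior Thalamus in replicates 1 and 2, 9.08 and 9.64 in the Centre Median, 9.21 and 9.56 in the Medial Thalamus, 9.24 and 10.17 in the Pulvinar, and 9.55 and 10.23 in the Ventral Thalamus. The Ventral array was the highest in each replicate set, and every replicate 2 array lay above every replicate 1 array. The Ventral Thalamus stood 0.40 above the rest (SE 0.13 with the block), at an adjusted p of 0.210 with the block and 1.00 without it. A second CDH2 probe set gave -0.09 for the same difference.

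CDH15, M-cadherin, known from muscle, measured 8.16 on both Centre Median arrays and between 7.79 and 8.07 on the other 8 arrays. Both Centre Median arrays thus lay above all others, by a margin of 0.18 between the means, with an adjusted p of 0.912 with the block. Its other probe set gave -0.11. CDH1, E-cadherin of epithelia, ran from 4.33 to 4.85 over the arrays, and CDH3, P-cadherin, from 7.40 to 7.53, the narrowest spread of nucleus means in the family at 0.05.

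CDH8, a type II cadherin of neurons and their synapses, was the member called between nuclei, in the fit with the block alone. It measured 8.42 and 7.66 in the Anterior Thalamus, 7.98 and 7.62 in the Centre Median, 8.18 and 7.53 in the Medial Thalamus, 8.28 and 8.03 in the Pulvinar, and 7.75 and 6.87 in the Ventral Thalamus. The Ventral array was the lowest of its replicate set in both sets, but Ventral replicate 1 lay above 3 of the replicate 2 arrays of other nuclei, so the groups overlapped on the values as they are.

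The Ventral mean of CDH8 was 7.31 ± 0.62 (SD, n = 2) against 7.96 over the other nuclei, a difference of -0.65, or 1.57-fold. The difference was -0.47 within replicate 1 and -0.84 within replicate 2. Its SE was 0.12 with the block and 0.30 without it, and limma's adjusted p was 0.0391 with the block and 1.00 without it. At the other end of its order, the Pulvinar stood 0.41 above the rest (adjusted p = 0.999 with the block), and the Pulvinar minus Ventral difference was 0.85 (adjusted p = 0.115). The order of nucleus means was Pulvinar 8.16, Anterior Thalamus 8.04, Medial Thalamus 7.86, Centre Median 7.80 and Ventral Thalamus 7.31, and no neighbouring pair in it was called.

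A second CDH8 probe set, which ran from 4.85 to 5.44 over the 10 arrays, gave a Ventral difference of 0.14, and the mean of both probe sets gave -0.26 with an adjusted p of 0.276. The call also ended with quantile normalisation, with a variance estimate that ignores the mean level, with the actin signal as a covariate, and without any 1 of 7 arrays: both Anterior, both Centre Median, Pulvinar replicate 2 and both Ventral arrays. Without single arrays the adjusted p ran from 0.0283 to 0.579 and the difference from -0.84 to -0.47.

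Cell type markers also differed in the Ventral Thalamus, where 4 of 48 were called with the block, against 0.527% of all genes. All 5 measured oligodendrocyte markers stood higher there, with a median of 0.86 and 2 called with the block, and their summed intensity was 14819 and 18208 in the Ventral Thalamus against 7236 to 11851 in the other replicate 1 arrays and 10727 to 14831 in the other replicate 2 arrays. All 4 measured genes listed as inhibitory neuron markers were also higher, with a median of 0.76 and 0 called. GAD1 and GAD2 stood at 0.49 and 0.40, and SST and PVALB at 1.03 and 1.42. Whether PVALB marks inhibitory neurons in these nuclei was not tested. Of 6 astrocyte markers, 4 were lower, and GFAP fell by 1.11 (adjusted p = 0.0378 with the block). CALB2, from the habenula and midline list, stood at -1.28 (limma's adjusted p = 0.0049 with the block). In that list POU4F1 and TAC1 were also lower and CALB1 was higher by 0.06. The relay neuron markers went both ways: SLC17A6, RORA and TCF7L2 stood at 0.53, 0.30 and 0.08. LEF1, PRKCD and SLC17A7 stood at -0.26, -0.07 and -0.05. No marker of these lists was at 0. The part of these cells and of RNA quality in the CDH8 difference was not tested, apart from the actin covariate, under which it was -0.71 (SE 0.23) at an adjusted p of 0.409.

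CDH9, another type II cadherin of neurons, had both arrays of a nucleus clear of the rest. It measured 5.95 and 6.14 in the Centre Median, 5.00 and 5.29 in the Anterior Thalamus, 5.20 and 5.21 in the Medial Thalamus, 5.13 and 5.42 in the Pulvinar, and 5.49 and 4.75 in the Ventral Thalamus. Both Centre Median arrays lay above all 8 others, and the 4 other nuclei overlapped.

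The Centre Median mean of CDH9 was 6.05 ± 0.14 (SD, n = 2) against 5.19 for the rest, a difference of 0.86 or 1.81-fold, and it was 0.74 in replicate 1 and 0.98 in replicate 2. limma's adjusted p was 0.0551 with the block (SE 0.16) and 1.00 without it (SE 0.19). When single arrays were left out, the difference ran from 0.74 to 0.98 with the block. Each of those fits leaves 1 nucleus with 1 array. The Ventral replicate 2 value of 4.75 was the lowest of the 10, and the Centre Median stood 0.92 above the Ventral Thalamus (adjusted p = 0.0744 with the block). Without Ventral replicate 1 the Ventral Thalamus, then read from 1 array, stood at -0.77 from the rest with the block. In the Centre Median, limma with the block called 0 of the 48 measured marker genes, and 4 (8.33%) had an unadjusted p under 0.05, against 5.92% of all genes. The largest marker differences there were 1.32 for PVALB, -1.01 for SST, 0.79 for LEF1 and -0.70 for CALB1. The part of cell make-up in the CDH9 difference was not tested.

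**Figure D2:**
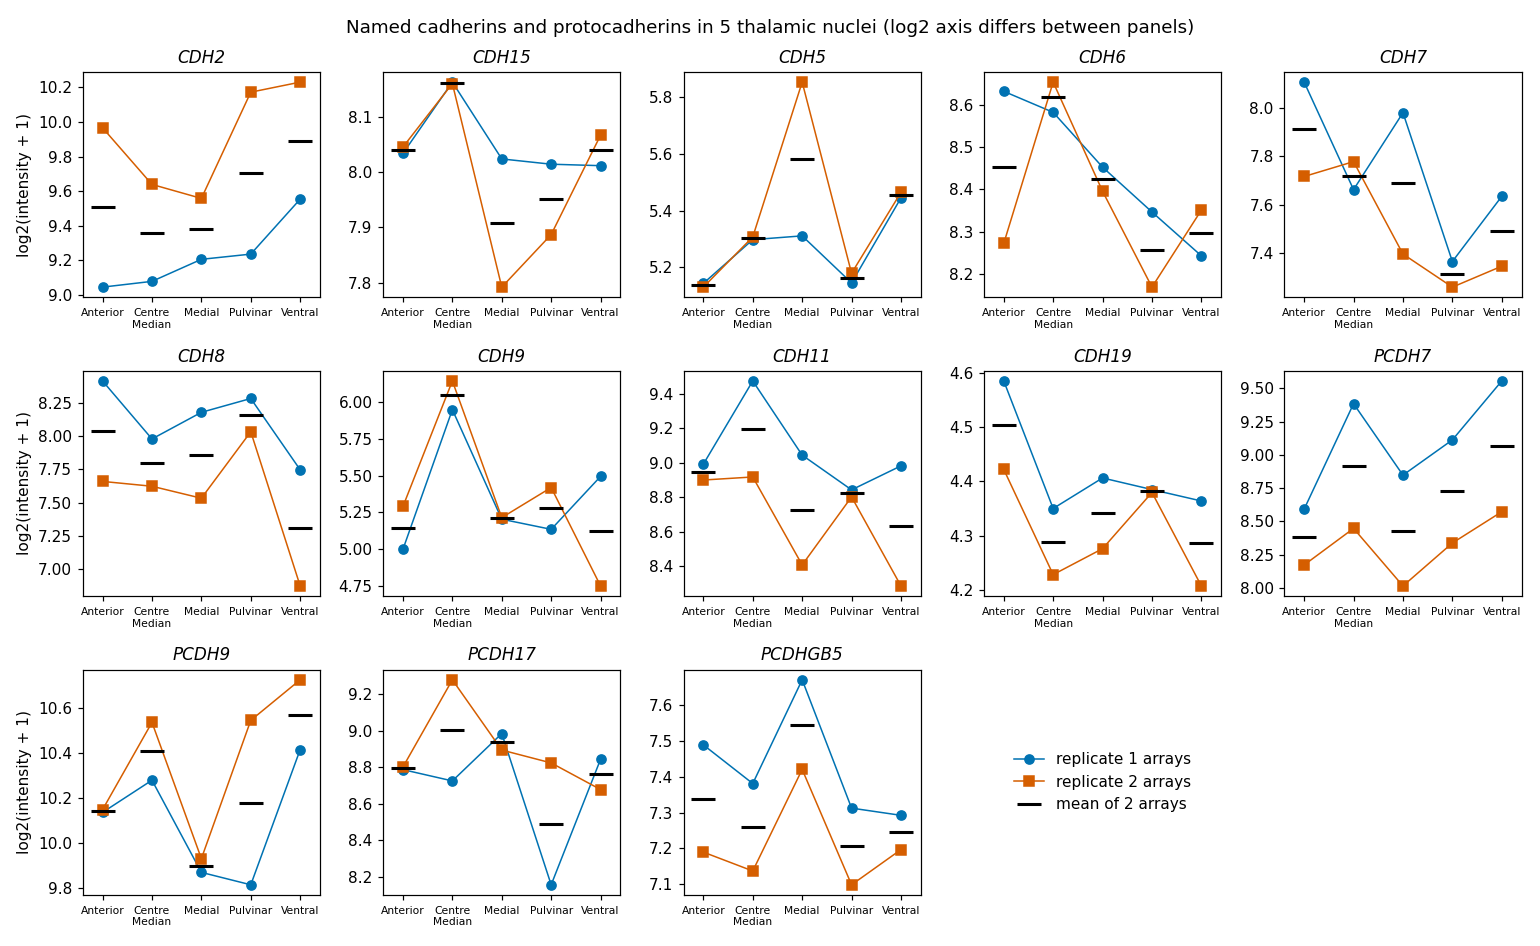
Values of 13 named members by nucleus, as log2(intensity + 1), with circles for replicate 1 arrays, squares for replicate 2 arrays and a bar for the mean of both; each panel has its own axis. CDH9 peaks in the Centre Median in both sets, CDH8 is lowest in the Ventral Thalamus in both sets, and CDH2 and PCDH7 show lines that run apart between the sets.

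CDH11, known from mesenchyme as well as brain, measured 9.48 and 8.92 in the Centre Median, 8.99 and 8.90 in the Anterior Thalamus, 9.04 and 8.41 in the Medial Thalamus, 8.84 and 8.80 in the Pulvinar, and 8.98 and 8.29 in the Ventral Thalamus. The Centre Median was the highest nucleus in each set, and the groups overlapped. It stood 0.41 above the rest (SE 0.14 and adjusted p = 0.536 with the block). The second CDH11 probe set gave the same direction at 0.58.

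CDH6, a type II cadherin named for kidney and also found in brain, measured 8.58 and 8.65 in the Centre Median, 8.63 and 8.27 in the Anterior Thalamus, 8.45 and 8.40 in the Medial Thalamus, 8.35 and 8.17 in the Pulvinar, and 8.24 and 8.35 in the Ventral Thalamus. The Centre Median was highest in replicate 2, and the Anterior array was above it in replicate 1. Its Centre Median difference was 0.26 (adjusted p = 0.790 with the block), and 4 other probe sets gave -0.03, 0.03, 0.13 and 0.21.

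CDH7, a neural type II cadherin, had its highest mean in the Anterior Thalamus and its lowest in the Pulvinar, and this pair was not called. In replicate 2 the Centre Median array was the highest. It measured 8.11 and 7.72 in the Anterior Thalamus, 7.66 and 7.78 in the Centre Median, 7.98 and 7.40 in the Medial Thalamus, 7.36 and 7.26 in the Pulvinar, and 7.63 and 7.35 in the Ventral Thalamus. The Pulvinar was lowest in each set, although Ventral replicate 2 at 7.35 lay just below Pulvinar replicate 1. The Anterior Thalamus was 0.36 above the rest and the Pulvinar 0.39 below it, a difference of -0.39, with adjusted p of 0.807 and 0.999 with the block.

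CDH5, VE-cadherin, which joins endothelial cells, measured 5.31 and 5.85 in the Medial Thalamus, 5.14 and 5.13 in the Anterior Thalamus, 5.30 and 5.31 in the Centre Median, 5.15 and 5.18 in the Pulvinar, and 5.44 and 5.46 in the Ventral Thalamus. Both Anterior arrays lay below the other 8, but barely, with Anterior replicate 1 at 5.144 and Pulvinar replicate 1 at 5.145. The Anterior difference from the mean of the rest was -0.24 (adjusted p = 0.859 with the block). The Medial difference of 0.32 (adjusted p = 0.273 with the block) came from Medial replicate 2, since it was 0.05 within replicate 1 and 0.58 within replicate 2. With the block the Medial difference was 0.58 without Medial replicate 1 and 0.05 without Medial replicate 2, each time with 1 Medial array left.

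On that Medial replicate 2 array the summed intensity of 7 markers of choroid plexus, meninges and ependyma was 7045, against 1503 to 2421 on the other 9 arrays. TTR alone, the choroid plexus transthyretin, made up 4656 of it, against 143 to 339 on the other arrays, and the 6 remaining markers summed to 2390 there against 1305 to 2132 elsewhere. Of the 7 markers, 4 were higher in the Medial Thalamus and FOLR1, FOXJ1 and LUM were lower, with 0 called. The 7 measured markers of endothelium and vessel wall summed to 1044 to 1264 over all arrays, with 4 higher and 3 lower in the Medial Thalamus and a median of 0.06. limma called 0 vessel markers in the Medial Thalamus in either fit, and 0 had an unadjusted p under 0.05 with the block. The part of adjoining tissue in the CDH5 difference was not tested.

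CDH19, known from glia of peripheral nerve, measured 4.59 and 4.42 in the Anterior Thalamus and 4.21 to 4.41 on the other 8 arrays. Both Anterior arrays lay above the others, at a difference of 0.18 (SE 0.058 and adjusted p = 0.807 with the block) near the low end of the scale. Its values on the replicate 2 arrays were at or below those of replicate 1 in every nucleus.

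CDH12 had the widest distance between nucleus means in the family and is described although it fell outside the rule for named members, so it was chosen after its values were seen. It measured 6.53 and 7.999 in the Ventral Thalamus, 6.89 and 6.10 in the Anterior Thalamus, 6.78 and 7.12 in the Centre Median, 6.62 and 5.92 in the Medial Thalamus, and 5.81 and 6.63 in the Pulvinar. A single array, Ventral replicate 2, stood above the other 9. The Ventral difference was 0.78 (SE 0.32 and adjusted p = 0.349 with the block), being 0.003 within replicate 1 and 1.55 within replicate 2, and 0.04 without the block when Ventral replicate 2 was left out. The remaining type II cadherins, CDH10, CDH18, CDH20 and CDH22, had nucleus means no more than 0.33 apart.

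Over the 12 type II cadherins the Ventral Thalamus was lower for 8 and higher for 4, with a median of -0.14 against -0.01 for all genes, and 9 of the 12 (75%) had the same sign in both replicate sets, against 59.6% of all genes. In the Centre Median 7 were higher and 5 lower, with a median of 0.09. The atypical cadherins CDH16 and CDH17, known from kidney and from liver and intestine, had nucleus means 0.20 and 0.17 apart, and both were at their lowest in 1 nucleus in both sets, CDH16 in the Ventral Thalamus and CDH17 in the Pulvinar.

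Among the delta protocadherins the Ventral Thalamus stood above the Medial Thalamus for PCDH7 and PCDH9 without passing the adjusted threshold. PCDH7, also called NF-protocadherin and known from axon growth, measured 9.56 and 8.57 in the Ventral Thalamus, 8.59 and 8.17 in the Anterior Thalamus, 9.38 and 8.45 in the Centre Median, 8.85 and 8.01 in the Medial Thalamus, and 9.11 and 8.34 in the Pulvinar. The Ventral array was the highest of each set, while every replicate 2 array was lower than its replicate 1 partner. The Ventral difference was 0.45 (SE 0.12 and adjusted p = 0.124 with the block), 0.57 in replicate 1 and 0.33 in replicate 2.

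The Medial minus Ventral difference of PCDH7 was -0.63, with an adjusted p of 0.0596 with the block, the smallest of any member and pair of nuclei. The Anterior Thalamus stood lower than the rest, at a difference of -0.40 (adjusted p = 0.807 with the block). Of 3 other PCDH7 probe sets, 1 gave similar differences of 0.40 in the Ventral and -0.38 in the Anterior Thalamus, and the other two gave 0.06 and -0.06 in the Ventral and 0.11 and -0.04 in the Anterior Thalamus.

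PCDH9, a delta protocadherin of neurons, measured 9.87 and 9.93 in the Medial Thalamus, 10.14 and 10.15 in the Anterior Thalamus, 10.28 and 10.54 in the Centre Median, 9.81 and 10.55 in the Pulvinar, and 10.42 and 10.73 in the Ventral Thalamus. Ventral arrays were the highest of each set, and the Medial arrays were near the bottom beside Pulvinar replicate 1. The Medial difference was -0.43 (SE 0.14 and adjusted p = 0.277 with the block), and a second probe set gave -0.55. The Medial minus Ventral difference was -0.67 (adjusted p = 0.0891 with the block). All 5 oligodendrocyte markers were lower in the Medial Thalamus, with a median of -0.58 and 0 called. All 4 genes of the inhibitory neuron list were lower too, with GAD1 called at -1.06 and PVALB uncalled at -1.50. Both lists moved opposite to their direction in the Ventral Thalamus. Of the 48 measured marker genes, limma with the block called 2 in the Medial Thalamus. Beside GAD1 this was CALB2, which was higher there at 1.10 (adjusted p = 0.0194). Among the astrocyte markers, uncalled, GFAP stood at 1.12 and SLC1A2 at -0.33. The part of cell make-up in the PCDH9 difference was not tested.

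PCDH17, a protocadherin of synapses, measured 8.16 and 8.82 in the Pulvinar, 8.79 and 8.80 in the Anterior Thalamus, 8.72 and 9.28 in the Centre Median, 8.98 and 8.89 in the Medial Thalamus, and 8.84 and 8.68 in the Ventral Thalamus. The low value was that of a single array, Pulvinar replicate 1. The Pulvinar difference of -0.38 (adjusted p = 0.999 with the block) was -0.68 in replicate 1 and -0.09 in replicate 2.

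PCDH8, an activity-regulated protocadherin of synapses that was likewise chosen after its values were seen, measured 4.45 to 4.96 on the replicate 1 arrays. On the replicate 2 arrays it measured 5.42 in the Anterior Thalamus, 6.35 in the Centre Median, 5.57 in the Medial Thalamus, 5.56 in the Pulvinar and 6.91 in the Ventral Thalamus. The Ventral difference was -0.19 within replicate 1 and 1.18 within replicate 2, so its mean of 0.50 (adjusted p = 0.483 with the block) rested on Ventral replicate 2, the same array as for CDH12. With the actin covariate it was called at 1.75 (adjusted p = 0.0114 with the block), a value above the difference within either replicate set. Ventral replicate 1 was the only replicate 1 array with a high actin signal, at 1.22. That fit therefore cannot separate the nucleus from the actin signal well. PCDH1 and PCDH11X had nucleus means 0.09 and 0.32 apart.

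**Figure D3:**
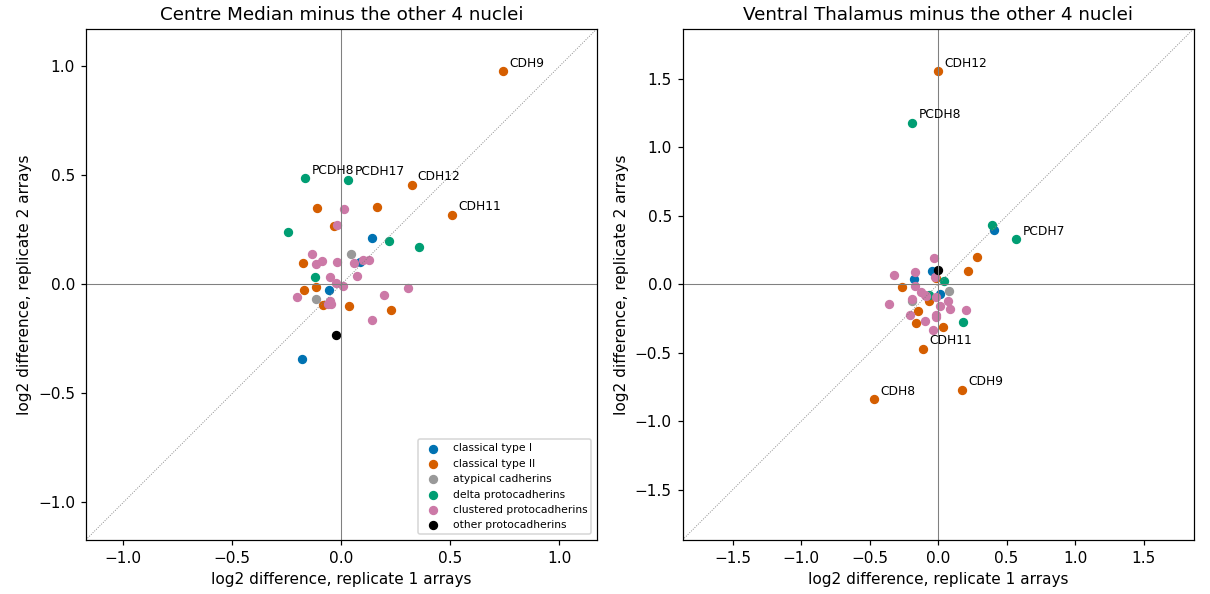
For each of the 45 members, the log2 difference of the Centre Median (left) or the Ventral Thalamus (right) from the other 4 nuclei among replicate 1 arrays, on the horizontal axis, is set against that among replicate 2 arrays; the dotted line marks equal differences. CDH9 at 0.74 and 0.98 and CDH8 at -0.47 and -0.84 lie near the line, and CDH12 and PCDH8 lie far above it in the Ventral Thalamus, where Ventral replicate 2 carries their difference.

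The 20 clustered protocadherins varied little between nuclei, and limma called 0 of them in any comparison of nuclei in either fit. At an unadjusted p under 0.05 with the block, 2 were higher in the Anterior Thalamus, PCDHA2 and PCDHGA9 (background 2.85%), 1 was higher in the Medial Thalamus, PCDHGB5 (4.06%), and 2 were lower in the Ventral Thalamus, PCDHB12 and PCDHGA3 (3.69%). Their nucleus means were 0.06 to 0.38 apart. These genes resemble each other in sequence, and 10 of the 20 were read from probe sets with the suffix _x_at, which marks probes that can bind several transcripts, so their values are not independent and may mix members.

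PCDHGB5, a gamma-array member, measured 7.67 and 7.42 in the Medial Thalamus, 7.49 and 7.19 in the Anterior Thalamus, 7.38 and 7.14 in the Centre Median, 7.31 and 7.10 in the Pulvinar, and 7.29 and 7.20 in the Ventral Thalamus. The Medial array was the highest of each set, and Medial replicate 2 lay below Anterior replicate 1. The difference was 0.28 (SE 0.094 and adjusted p = 0.282 with the block), 0.30 in replicate 1 and 0.26 in replicate 2. PCDHGA9 was above all other arrays in both Anterior arrays, at 6.73 and 6.65 against 6.004 to 6.63, a pattern chosen after its values were seen.

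In the Ventral Thalamus 17 of the 20 clustered members were lower and 3 higher, with a median of -0.09 against -0.01 for all genes, and 12 of the 20 (60%) had the same sign in both sets, against 59.6% of all genes. In the Medial Thalamus 15 were higher and 5 lower, with a median of 0.05. In the Anterior Thalamus, Centre Median and Pulvinar the numbers higher were 11, 11 and 8, with medians of 0.01, 0.01 and -0.02. No list-level test was made of these shifts. PCDH12, a vascular protocadherin outside the clusters, ran from 7.74 to 8.01.

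Over all 45 members, the 2 arrays of some nucleus lay both above or both below the other 8 for 5 members, CDH9, CDH15, CDH19, CDH5 and PCDHGA9, against 7.78% of all genes. The same nucleus was the highest in both replicate sets for 15 members (background 24.8%) and the lowest in both for 9 (21.4%). Both held for PCDHB12, PCDHGA3, PCDHGA9 and PCDHGC3, against 6.60% of genes. The members' median difference from the rest was -0.07 in the Ventral Thalamus, with 30 of 45 lower, and between -0.03 and 0.04 in the other nuclei.

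More members passed the threshold between the replicate numbers than between nuclei. With nuclei held equal, 22 of the 45 members were lower and 3 were higher on the replicate 2 arrays, against 31.1% and 25.4% of all genes. The clustered protocadherins accounted for 15 of those lower and 1 of those higher, PCDHGA8. Their median was -0.31, against -0.05 for all genes and -0.11 for all members.

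The largest such falls were those of PCDHB12, by 0.80, PCDH7, by 0.79, PCDHB3, by 0.59, and CDH8, by 0.58. PCDHB12 measured 6.64 to 7.12 in replicate 1 but 6.005 to 6.24 in replicate 2, and the sets did not overlap. The higher members were PCDH8, at 1.33, CDH2, at 0.69, and PCDHGA8, at 0.35, each higher in 5 of 5 nuclei.

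The lowest intensity on an array was 11.97 to 12.3 in replicate 1 but 9.49 to 9.55 in replicate 2, and the actin signal moved with the replicate number too, as given above. After quantile normalisation 12 clustered members were lower and 1 was higher. With the actin signal as a covariate the clustered median was -0.34, with 16 of 20 below 0. In this fit 1 clustered member was called lower and 0 higher, and 3 of the 45 members were called. Because the actin signal ran closely with the replicate number, the fit cannot separate them. The share of all genes called lower dropped to 1.29% in that fit. Whether animal, RNA quality or array processing set the replicates apart cannot be told apart from these labels.

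**Figure D4:**
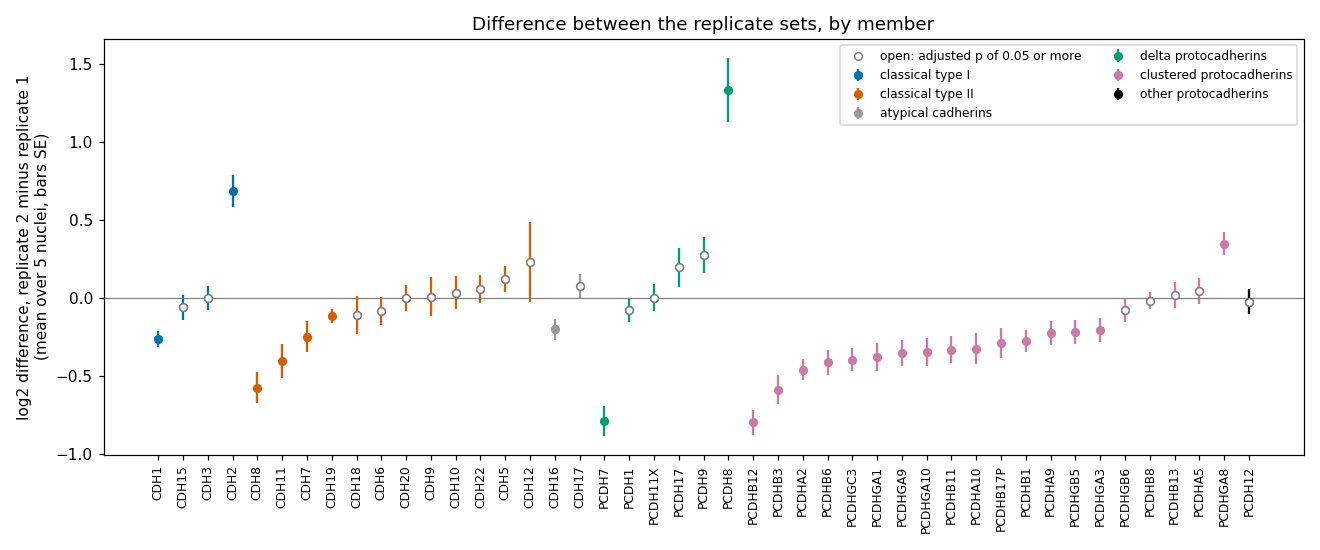
Log2 difference of the replicate 2 arrays from the replicate 1 arrays for each member, averaged over 5 nuclei, with bars of 1 SE from the fit with the block; filled points passed an adjusted p under 0.05 and open points did not. Of the clustered protocadherins 15 lie below 0 as filled points, and PCDH8 at 1.33 is the highest member.

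Genes that work with cadherins or resemble them were read from lists of the family's partners. Of 27 catenins and junction partners 26 were measured, of 28 genes of cadherin shedding, processing and signalling 23 were measured, and of 23 other genes of the cadherin superfamily 21 were measured. limma called 0 of them in the F test or against the rest in either fit. With the block and an unadjusted F test p under 0.05 there were 2, 4 and 1 of them, against the 9.68% of all genes given above. Their median distance between the highest and the lowest nucleus mean was 0.24, 0.26 and 0.16.

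PTPRK, a receptor tyrosine phosphatase that acts on cadherin junctions, was called in 1 pair, with the Medial Thalamus below the Ventral Thalamus at means of 7.64 and 8.43 (adjusted p = 0.0269 with the block and 1.00 without it). With the block 1.08% of all genes were called in that pair, and 0.878% were called lower in the Medial Thalamus. In the same pair all 5 oligodendrocyte markers were lower in the Medial Thalamus with 3 called. All 4 genes of the inhibitory neuron list, PVALB among them, were lower there with 2 called. The part of these cells in the PTPRK difference was not tested. Against the rest it stood at 0.53 in the Ventral Thalamus (adjusted p = 0.0746 with the block) and -0.45 in the Medial Thalamus (adjusted p = 0.169). PTK2, the focal adhesion kinase, and CYFIP2, a regulator of actin branching, followed with unadjusted F test p of 0.0204 and 0.0267 with the block, and both had their lowest mean in the Medial Thalamus and their highest in the Ventral Thalamus. Of the processing and signalling genes, 18 of 23 were lower in the Medial Thalamus, with a median of -0.11 against -0.0005 for all genes. No list-level test was made of this shift, and the counts by direction for the other lists and nuclei are not given here.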

How the data were processed

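Normalised intensity was deposited for 22283 probe sets on 10 arrays. The authors' method was RMA (no version stated), per the submitters' processing notes; whether both replicate sets were normalised together is not given in the sources used here. No other columns of sample values were present (0). Probe sets were named through the platform annotation. Controls (68), probe sets of several genes (1043) and unlisted ones (2107) were left out, and for each gene the single-symbol probe set that was brightest on average was kept. Of the 45 member symbols, 33 occur in the rhesus RefSeq gene table.

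From the deposited intensities log2(value + 1) was taken, with no filter on low values. limma 3.58.1 in R 4.3.3 was fitted to all 11963 genes with 1 mean per nucleus, empirical Bayes moderation and a variance trend, and a gene was called at a Benjamini-Hochberg adjusted p under 0.05 over all genes. Residual degrees of freedom were 5 without the block and 4 with it, and prior ones 2.91 and 8.66. Replicate numbers come from the labels. The differences between replicate 2 and replicate 1 correlated across genes between all 10 pairs of nuclei, at 0.758 to 0.831, so the numbers were treated as pairing the arrays and the blocked value is given beside the unblocked one.

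Members given in every array were those called in any comparison, the 3 with the smallest blocked p for each nucleus, the 5 with the smallest F test p in each fit, and classical cadherins with both arrays of a nucleus outside the other 8. From the partner lists the rule took any gene called and the 3 with the smallest blocked F test p. The members and lists were chosen with earlier results of these data known. Alternatives were pseudocounts of 0 and 16, a minimum mean log2 of 6, quantile normalisation, the mean of a gene's probe sets, no variance trend, the actin 3′ minus 5′ signal as a covariate, and each array left out. The fits were also run on simulated data, and the outcome of that run is not given here. The number of arrays limits the precision. Figures were drawn with Python 3.11.15 and matplotlib 3.10.9.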

Additional observations from a re-analysis of the deposited data

How the results depend on the processing

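Without the block, 0 members were called in any comparison of nuclei under every alternative run. With the replicate block 1 member, CDH8, was called in the Ventral Thalamus, and the count there was 0 with quantile normalisation, the mean of probe sets or no variance trend and 0 to 1 without single arrays. A pseudocount of 16 with the block raised the Centre Median count to 1, where CDH9 had a difference of 0.65 and an adjusted p of 0.0431. The actin covariate with the block gave 1 member in the F test (PCDH8), 1 in the Centre Median (CDH9), 1 in the Ventral Thalamus (PCDH8 in place of CDH8) and 5 comparisons between pairs of nuclei (4 of PCDH8 and 1 of CDH12). Without single arrays and with the block the ranges were 0 to 1 in the F test, the Centre Median and the Medial Thalamus, and 0 to 4 over pairs of nuclei, with calls of CDH5, CDH9 and PCDH7. The 25 members that differed between replicate numbers became 16 with the minimum mean log2 of 6, 3 with the actin covariate, and 19 to 22 without single arrays. The 15 clustered protocadherins lower in replicate 2 became 1 with the covariate, where their median was -0.34 (-0.31 without it), and 11 to 13 without single arrays. Without the block, the Ventral difference of PCDH7 ran from -0.041 to 0.94 when single arrays were left out, and that of PCDH8 from -0.72 to 1.71; with it, that of PCDH8 ran from -0.19 to 1.18. The lowest value came without Ventral replicate 1 for PCDH7 and without Ventral replicate 2 for PCDH8. The minimum mean tests fewer genes, and leaving out an array leaves its nucleus with 1 array. The other causes were not tested. Every other named difference kept its direction under each alternative in which it was tested. The arrays carry no detection calls, and CDH5, CDH9, CDH19 and PCDH8 were below the minimum mean, so none of these 4 was tested under that filter.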

Other observations

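A further 9 probe sets are assigned by the annotation to several protocadherin genes at once and were left out of the 45 members. The probe set shared by 15 genes of the alpha array measured 8.01 to 8.88 and was higher on the replicate 2 arrays by 0.37 (adjusted p = 0.00625 in limma with the block, adjusted over all probe sets), opposite to PCDHA2, which was lower there by a difference of -0.46. A probe set shared by 7 genes of the gamma array was lower on the replicate 2 arrays, at -0.47 (adjusted p = 0.000432). In replicates 1 and 2 it measured 6.37 and 6.09 in the Ventral Thalamus and 7.01 and 6.38 in the Medial Thalamus, with an adjusted F test p of 0.343 over the nuclei. Of 16 differences of named members that could be read from another probe set of the same gene, 9 had the same sign as the chosen probe set.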
